A study of Mus musculus with 16 samples.

Results

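The oligoadenylate synthetase (OAS) family was followed across the nucleus classes of the mouse hippocampus. Its 8 listed members were *Oas1a*, *Oas1b*, *Oas1c*, *Oas1g*, *Oas2*, *Oas3*, *Oasl1* and *Oasl2*. They were picked by symbol after their response to DMXAA in wild-type (WT) animals had been seen in these same libraries. Values and calls of DMXAA against vehicle in WT are therefore a description, given without p-values. Of the 8 members, 7 had a row among the 32285 genes of the count matrices, and *Oas1b* was not analysed here.

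OAS enzymes bind double-stranded RNA and join ATP into 2′-5′-linked oligoadenylates, which act as second messengers of antiviral defence. Type I interferon, which signals through a receptor with the subunits IFNAR1 and IFNAR2, induces the family in most cell types, and STING is one of the sensors upstream of that interferon. Members differ in what they do. *Oas1a*, *Oas1g*, *Oas2* and *Oas3* encode synthetases. *Oas1c* encodes a protein without synthetase activity. *Oasl1* and *Oasl2* carry ubiquitin-like domains, and of these *Oasl2* keeps synthetase activity whereas *Oasl1* lacks it and limits translation of *Irf7*.

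Single-nucleus RNA-seq libraries were made from the hippocampi of male mice, in 4 groups of 4 libraries. WT C57BL/6 mice were aged 2 months and 23 days and received either vehicle or DMXAA, a small-molecule agonist of mouse STING, by repeated injection into the peritoneum. Ifnar1-/- mice (KO) were aged 3 months and 3 days and received the same 2 treatments. The deletion was not restricted to a cell type, so the design did not separate the cells that make interferon from those that sense it. Genotype coincided with age, and their effects cannot be told apart.

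Over the 16 libraries, 108878 of 155084 barcodes were kept as nuclei, with 32368011 to 51500626 unique molecular identifiers (UMIs) per library. Clusters were named from marker genes, and 13749 nuclei stayed without a name. Pairs of libraries shared 5 to 22 barcodes. *Ifnar1* itself was read at 13.7 to 19.6 CPM (UMIs of a gene, scaled to 1000000 UMIs in all) in WT libraries and at 10.7 to 12.8 CPM in KO libraries over all nuclei. The targeted gene was thus lower in every KO library, and its transcript was still counted there. Of the 42692 excitatory nuclei, 17633 carried the markers of dentate granule cells, 6728 those of CA1 and 1993 those of CA3, the regions of the hippocampus. WT DMXAA replicate 3 stood apart, since 406 of the 407 WT DMXAA nuclei of 1 microglia subcluster came from it. A subcluster led by the neutrophil genes *Ltf*, *S100a9* and *Ngp*, kept out of the microglia class, held 84 WT DMXAA nuclei of 86.

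All members lie on chromosome 5 (GRCm38, the assembly also called mm10; GENCODE M21 gene models). *Oasl2* (ENSMUSG00000029561) spans 114896936 to 114912234 and *Oasl1* (ENSMUSG00000041827) spans 114923240 to 114937915, both on the plus strand. The other members with counts lie on the minus strand in a second group. *Oas2* (ENSMUSG00000032690) spans 120730333 to 120749853, *Oas3* (ENSMUSG00000032661) spans 120753098 to 120777661 and *Oas1c* (ENSMUSG00000001166) spans 120800194 to 120812514. *Oas1g* (ENSMUSG00000066861) spans 120876142 to 120887613 and *Oas1a* (ENSMUSG00000052776) spans 120896256 to 120907521. The *Oas1* genes are close copies of each other, so their reads may be split or dropped and their single values are uncertain. Over all nuclei kept, *Oasl2* had 4017 UMIs, *Oas2* 857, *Oas1c* 457, *Oas1a* 266, *Oasl1* 167, *Oas1g* 89 and *Oas3* 88. Of the other *Oas1* copies, *Oas1d* had 0 UMIs, *Oas1e* 3, *Oas1f* 13 and *Oas1h* 9.

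Promoters of 6 members were found in RefSeq (GRCm38.p6) and were searched on both strands for the core of the interferon-stimulated response element. The core was written as 2 copies of GAAA separated by 2 bases, and overlapping copies were counted. It was present in 4 of the 6 promoters, those of *Oas1a*, *Oas1g*, *Oas1c* and *Oas3*. Of 32851 promoters of the same 300 bases, 3.44% held it. The 250 bases before the start are printed 5′ to 3′ on the strand of the gene for 4 members, with the core in capitals, to show how alike the copies of *Oas1a* and *Oas1g* are and how the other promoters differ from them.
Oas1a: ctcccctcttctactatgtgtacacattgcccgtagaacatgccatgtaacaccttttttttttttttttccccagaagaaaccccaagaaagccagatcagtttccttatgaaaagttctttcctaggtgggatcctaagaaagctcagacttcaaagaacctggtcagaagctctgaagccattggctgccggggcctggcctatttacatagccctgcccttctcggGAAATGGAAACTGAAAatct
Oas1g: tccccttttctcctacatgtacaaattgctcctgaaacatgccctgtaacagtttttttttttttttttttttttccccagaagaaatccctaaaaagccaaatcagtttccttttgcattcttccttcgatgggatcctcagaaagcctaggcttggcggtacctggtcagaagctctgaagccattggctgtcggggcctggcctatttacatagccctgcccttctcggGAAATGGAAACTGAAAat
Oas3: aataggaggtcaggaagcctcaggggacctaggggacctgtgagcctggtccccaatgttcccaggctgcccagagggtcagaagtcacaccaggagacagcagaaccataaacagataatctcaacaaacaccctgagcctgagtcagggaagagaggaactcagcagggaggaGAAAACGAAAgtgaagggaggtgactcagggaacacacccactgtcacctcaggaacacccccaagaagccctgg
Oasl2: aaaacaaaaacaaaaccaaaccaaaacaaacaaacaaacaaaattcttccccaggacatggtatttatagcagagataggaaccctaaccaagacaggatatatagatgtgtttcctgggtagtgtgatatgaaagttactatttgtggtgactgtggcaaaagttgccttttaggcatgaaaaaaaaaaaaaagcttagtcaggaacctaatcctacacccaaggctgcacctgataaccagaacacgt

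The *Oas1a* sequence is at chr5:120907526-120907775 and the *Oas1g* sequence at chr5:120887614-120887863. Each held 2 overlapping cores close to the start, the first base lying 20 and 14 bases before it in *Oas1a* and 18 and 12 bases before it in *Oas1g*. *Oas3* (chr5:120777660-120777909) held 1 core, 75 bases before the start. In *Oas1c* 2 cores lay on the opposite strand, 114 and 108 bases before the start. This window (chr5:120812515-120812764) also holds the start of *Oas1b*, at 120812635 on the plus strand. The cores there cannot be assigned to *Oas1c* alone. These letters were not in the windows of *Oasl1* or *Oasl2* (chr5:114896684-114896933), nor in those of *Oas1f* and *Oas1h*. Presence of the core is a match of letters, and binding was not measured.

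Microglia, the resident macrophages of the brain, went from almost no OAS UMIs with vehicle to the second highest family level of any class with DMXAA. The 4 WT vehicle libraries held 5, 12, 2 and 0 family UMIs in microglia, and the 4 WT DMXAA libraries held 822, 269, 147 and 287. As CPM, the family's UMIs scaled to the total UMIs of that class and library, these were 7.8, 19.3, 3.3 and 0 against 1153.1, 418.1, 169.5 and 379.9. No DMXAA library overlapped a vehicle library, and WT DMXAA replicate 1 lay far above the other 3. The means were 530 ± 429 CPM (SD, n = 4) with DMXAA and 7.61 ± 8.44 CPM with vehicle, a ratio of 69.5 (95% counting interval 44.4 to 116). Without WT DMXAA replicate 1 the DMXAA mean was 323 CPM and the ratio 42.1, and without replicate 3 the mean was 650 CPM. Intervals of this kind here and below cover counting error only, not the spread between animals.

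*Oasl2* gave the most UMIs of the family in microglia, with 458, 152, 59 and 144 in WT DMXAA replicates 1 to 4 and 0, 6, 1 and 0 in the vehicle libraries. Its level was 284 CPM on average with DMXAA, and its fitted log2 fold change was 6.59 ± 0.90 (SE). *Oas2* had 155, 45, 47 and 75 UMIs with DMXAA and no UMI in any vehicle library. Against a floor of 3 counts over the vehicle group, *Oas2* was at least 92.9-fold higher. *Oas1a* had 68, 36, 22 and 40 UMIs against 2, 2, 0 and 0, a log2 fold change of 5.02 ± 0.66. In each of these 3 genes every WT DMXAA library lay above every WT vehicle library, in the contrast that chose the members. Leaving out WT DMXAA replicate 1, the mean of *Oasl2* was 165 CPM and the bound of *Oas2* 63.4-fold.

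The remaining members were sparser. *Oasl1*, whose product restrains *Irf7*, had 64, 14, 8 and 8 UMIs with DMXAA and none with vehicle, which made it at least 27.1-fold higher. *Oas1g* had 25, 9, 4 and 6 UMIs against none and was at least 12.7-fold higher. *Oas3*, the largest synthetase, had 28, 4, 3 and 0 UMIs against none and was at least 10.1-fold higher over the group, although replicate 4 had no UMI and replicate 1 held most of the counts. *Oas1c* had 24, 9, 4 and 14 UMIs with DMXAA and 3, 4, 1 and 0 with vehicle. Its groups overlapped, and the ratio was 5.52 (interval 2.60 to 13.5). The bounds fell to 11.4-fold for *Oasl1*, 7.21-fold for *Oas1g* and 2.66-fold for *Oas3* without WT DMXAA replicate 1.

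edgeR's filter on low counts kept *Oas1a*, *Oas2* and *Oasl2* in microglia, and all 3 were called higher in WT at an adjusted p under 0.05 (Benjamini-Hochberg over all genes tested) and an absolute log2 fold change over 0.1. Of the 8920 genes tested, 1.24% were called higher in this contrast. Since the contrast chose the members, nothing is read from this count.

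**Figure D1:**
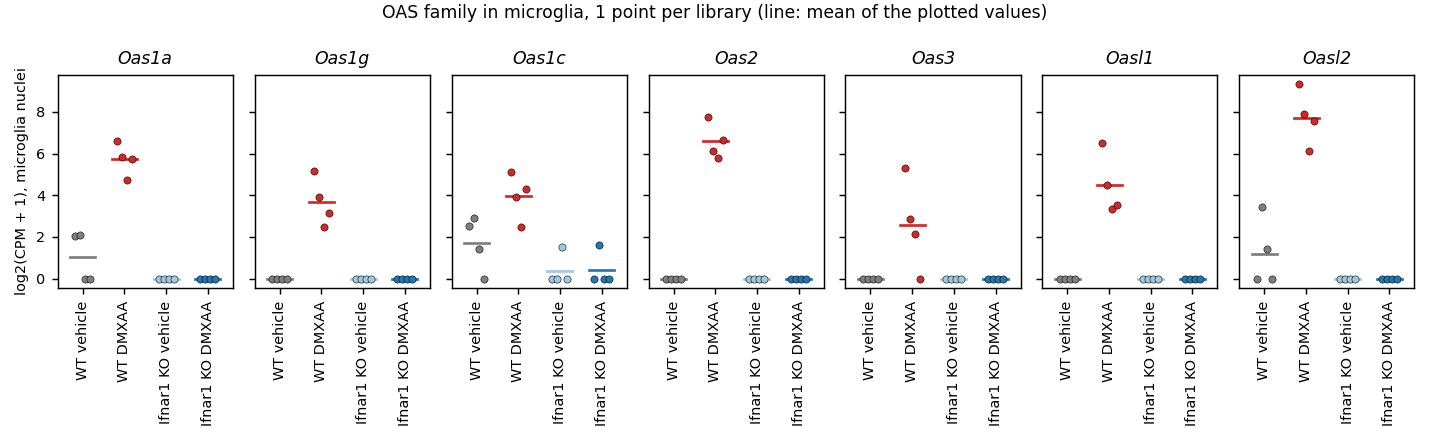
Level of each OAS gene in microglia, with log2(CPM + 1) on the vertical axis and 1 point per library in each of the 4 groups, WT on the left and KO on the right. Points of WT DMXAA lie above all other groups for *Oas1a*, *Oas1g*, *Oas2*, *Oasl1* and *Oasl2*, whereas *Oas3* has 1 WT DMXAA library at 0, *Oas1c* overlaps with vehicle, and both KO groups lie at or near 0.

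The share of nuclei with a family UMI was higher as well. A higher level in each nucleus also raises this share, so more carrying nuclei and more UMIs per nucleus cannot be told apart. After each nucleus was thinned to 1000 UMIs, a family UMI was found in 63.6%, 32.4%, 14.3% and 31.8% of microglia in WT DMXAA replicates 1 to 4, and in 0.949%, 1.92%, 0.312% and 0% of those in the vehicle libraries. The means were 35.5% ± 20.5 and 0.795% ± 0.846 (SD, n = 4), over 1453 and 1314 nuclei, and 30 and 21 shallower nuclei were left out. Unthinned, the shares were 50.5% and 1.25%, at median depths of 1932 and 1853 UMIs per nucleus. Microglia with UMIs of at least 2 different members made up 8.11% ± 8.05 in WT DMXAA libraries. *Oasl2* alone was found in 22.4% ± 17.4 and *Oas2* in 10.1% ± 4.38. On replicates 2 to 4 these shares were 4.24%, 14.3% and 8.09%. Inhibitory neurons had the lowest DMXAA level of the classes when excitatory neurons were not divided by region. Of their nuclei, 0.460% ± 0.503 held a family UMI after the same thinning, and 2.87% did unthinned, at a median depth of 7302 UMIs. The microglial share of each of the 4 WT DMXAA libraries lay above that thinned share of inhibitory neurons. This order follows from taking the class with the lowest level, so nothing is read from it. Free RNA was not measured, and its part in these shares was not tested.

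The microglia of the groups did not lie in the same subclusters. Subcluster 0 held 65.2% of WT vehicle microglia and 2.29% of WT DMXAA microglia, and subcluster 1 held 17.1% and 60.4%. Within subcluster 1, the family was at 677 CPM with DMXAA and 15.6 CPM with vehicle, summed over libraries. The few WT DMXAA nuclei of subcluster 0 stood at 468 CPM against 6.98 CPM with vehicle, so the difference was present inside both subclusters. The WT DMXAA nuclei of subcluster 3, 406 of 407 from replicate 3, were lower at 169 CPM, and the subcluster also held 62 KO vehicle, 12 KO DMXAA and 2 WT vehicle nuclei. The 9 microglia markers summed to 6854 to 11793 CPM in WT DMXAA microglia and to 11135 to 11901 CPM with vehicle. The 7 border macrophage markers summed to 14 to 27.7 CPM and 6.4 to 16.9 CPM, with *Cd163*, *Pf4* and *Lyve1* at 0 in both. Markers of other classes reached higher in some WT DMXAA libraries, with 63.1 to 854.4 CPM against 99.8 to 193 CPM with vehicle for inhibitory neurons, 55.3 to 762.5 CPM against 15.5 to 259.1 CPM for choroid plexus epithelium, 185.2 to 599.5 CPM against 222.1 to 358.2 CPM for excitatory neurons and 26.7 to 295.2 CPM against 50.2 to 74 CPM for oligodendrocyte precursors. The part of these shifts in the OAS values was not tested.

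The family level across classes spanned a wide range in WT DMXAA libraries. Border macrophages, the macrophages of the meninges and perivascular spaces, were highest at 1072 CPM, followed by microglia at 530 CPM, fibroblasts at 285 CPM and endothelial cells at 151 CPM. Mural cells (98.5 CPM), astrocytes (92.3 CPM), ependymal cells (68.9 CPM) and oligodendrocyte precursors (64.6 CPM) came next. Below them came Cajal-Retzius cells (40.4 CPM), choroid plexus epithelium (31.8 CPM), excitatory neurons (11.9 CPM), oligodendrocytes (8.36 CPM) and inhibitory neurons (4.08 CPM). The spread between libraries was large, with an SD of 747 CPM in border macrophages (n = 3) and 429 CPM in microglia (n = 4). No pair of neighbours in this order differed by more than its spread. The same libraries supply both classes of a pair, so this spread does not compare classes within a library. In each of the 3 WT DMXAA libraries with enough border macrophages, these lay above microglia. The other pairs of neighbours were not compared in this way. Among the 10 units that could be fitted (9 classes and all nuclei together), WT DMXAA replicate 1 had the highest family level in 10, and replicate 3 had the lowest in 6 of the 9 it entered. Without replicate 1 the means were 648 CPM in border macrophages, 323 CPM in microglia, 180 CPM in fibroblasts, 45.1 CPM in astrocytes, 37.2 CPM in oligodendrocyte precursors, 14.2 CPM in choroid plexus epithelium, 11.5 CPM in Cajal-Retzius cells, 6.69 CPM in excitatory neurons, 4.22 CPM in oligodendrocytes and 2.65 CPM in inhibitory neurons, which puts Cajal-Retzius cells below choroid plexus epithelium. Not every class held enough nuclei in each WT DMXAA library, so these means rest on different libraries. Replicate 1 is missing from those of endothelial (replicates 2 and 3), mural (3 and 4) and ependymal cells (2, 3 and 4), replicate 2 from border macrophages and replicate 3 from choroid plexus epithelium. Astrocytes stood above ependymal cells with replicate 1 and below them, at 45.1 against 68.9 CPM, on replicates 2 to 4. In the sum over all nuclei, more nuclei of a class and more RNA per nucleus cannot be told apart.

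**Figure D2:**
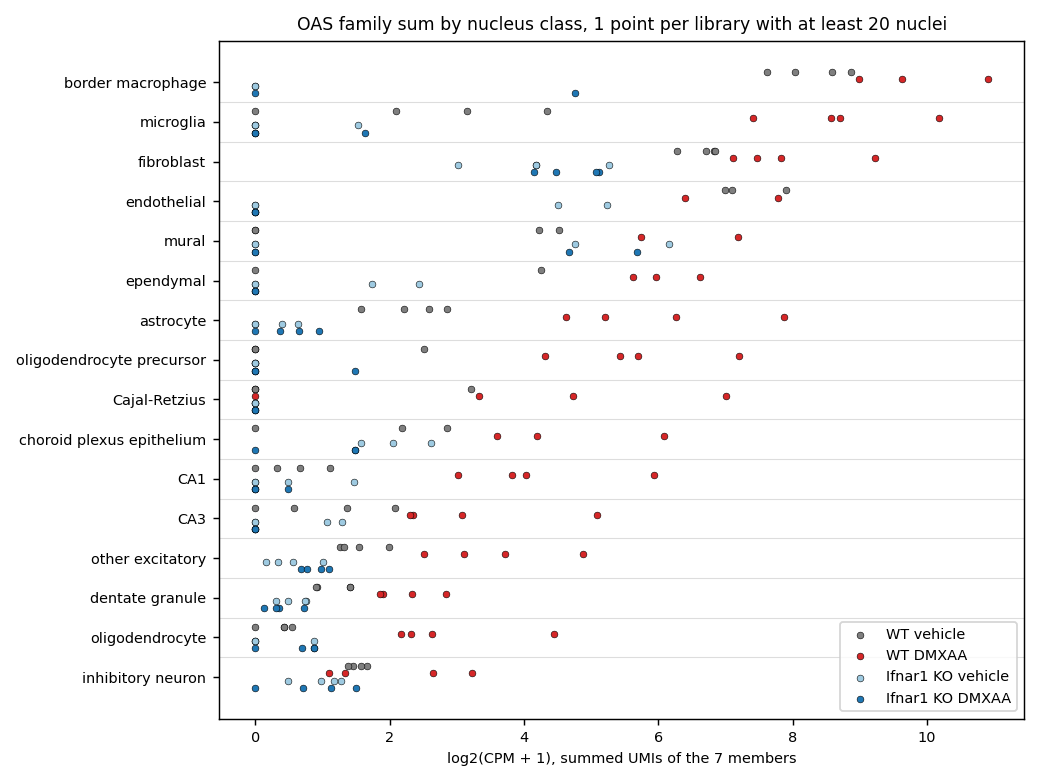
Summed level of the 7 members by nucleus class, with log2(CPM + 1) on the horizontal axis and 1 point per library with at least 20 nuclei of the class. WT DMXAA points reach highest in border macrophages and microglia, endothelial cells overlap between WT DMXAA and WT vehicle, and most KO points lie near 0 except in fibroblasts, mural and endothelial cells.

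Border macrophages already carried the family with vehicle. Their 4 WT vehicle libraries were at 195, 261, 467 and 383 CPM, and the 3 WT DMXAA libraries with at least 20 such nuclei were at 1918, 506 and 791 CPM. These groups did not overlap, and the ratio was 3.49 (interval 2.66 to 4.62), or 2.04 without WT DMXAA replicate 1. Inhibitory neuron markers summed to 63.9 to 674.3 CPM in these WT DMXAA libraries and to 110 to 170.6 CPM with vehicle, oligodendrocyte precursor markers to 16 to 259.3 and 13.8 to 71.8 CPM, and choroid plexus markers to 13 to 478.7 and 71.8 to 302.6 CPM. The part of these markers in the result was not tested. The class was made of different subclusters in the 2 groups. Over the 4 libraries of each group, subcluster 4 held 73.3% of WT DMXAA border macrophages, at 1204 CPM, and 100% of those with vehicle, at 301 CPM, and subcluster 7 held the other 23 WT DMXAA nuclei, at 466 CPM, and 0 vehicle nuclei. *Oas2* went from 122 ± 46.5 CPM (SD, n = 4) to 338 ± 172 CPM (n = 3) and *Oasl2* from 141 ± 88.6 CPM to 470 ± 426 CPM, and for *Oasl2* the groups overlapped (226 CPM without replicate 1). *Oasl1* had no UMI with vehicle and 11, 5 and 5 UMIs with DMXAA, at least 9.17-fold higher. Only 70 WT DMXAA and 108 WT vehicle nuclei stood behind these values, and no fit was made because each KO group had 2 libraries with enough nuclei.

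Fibroblasts of the meninges and vessels also carried the family with vehicle, at 101 CPM against 301 CPM in border macrophages, summed over libraries. *Oasl2* was at 96.7, 89.3, 96.4 and 65.0 CPM in WT vehicle libraries and at 463.4, 127.1, 109.1 and 177.8 CPM in WT DMXAA libraries, with no overlap. The fitted log2 fold change was 1.40 ± 0.37 (SE), and it was not called. No gene of the 8955 tested in fibroblasts was called by edgeR (0.0%), against 570 at an unadjusted p under 0.05. Without WT DMXAA replicate 3 the *Oasl2* fold change was 1.63 ± 0.32 and was called. *Oas2* went from 2, 2, 1 and 3 UMIs to 31, 15, 8 and 11, a ratio of 8.30 (interval 3.97 to 20), and *Oas1a* had 15, 6, 5 and 4 UMIs against 4, 2, 4 and 1, with overlap. Without WT DMXAA replicate 1 the means were 138 CPM for *Oasl2*, against 219 CPM with it, and 9.98 CPM for *Oas1a*, against 15.4 CPM. In endothelial cells *Oasl2* was at 126, 186 and 116 CPM with vehicle and at 83.1 and 164 CPM with DMXAA, a ratio of 0.962 (interval 0.498 to 1.85). No difference was detectable over these 46 and 73 nuclei, and WT DMXAA replicates 1 and 4, with 8 and 11 endothelial nuclei, were left out although they held 17 and 5 family UMIs.

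In astrocytes *Oasl2* was higher in WT DMXAA than in WT vehicle libraries. The WT DMXAA libraries held 425, 152, 53 and 98 *Oasl2* UMIs (220.5, 70.7, 21.5 and 34.0 CPM), and the WT vehicle libraries held 11, 10, 2 and 10 (5.3, 4.2, 0.8 and 3.0 CPM). Every DMXAA library lay above every vehicle library, and the log2 fold change was 4.79 ± 0.66. The mean was 86.7 CPM with WT DMXAA replicate 1 and 42.1 CPM without it. *Oasl2* was the 1 member that passed the filter in astrocytes, and it was called in a contrast that called 0.24% of 13309 genes higher. It was not called when only the 8 libraries of the contrast were fitted, nor was *Oasl2* then called in oligodendrocyte precursors or excitatory neurons or over all nuclei. In oligodendrocyte precursors *Oasl2* had 121, 34, 12 and 29 UMIs against 4, 0, 0 and 0, a log2 fold change of 5.57 ± 0.90, and was likewise the 1 member tested and called, beside 0.186% of 9688 genes. DESeq2 did not call it, and the edgeR call was lost without WT vehicle replicate 2, 3 or 4 (log2 fold change 5.14 to 5.21). The mean of *Oasl2* in these precursors was 54.8 CPM with WT DMXAA replicate 1 and 27.7 CPM without it. *Oasl1* (at least 3.54-fold) and *Oas1c* (at least 5.31-fold) were also higher in each DMXAA library of these precursors, from 0 UMIs with vehicle, whereas *Oas2* had no UMI in either group. Mature oligodendrocytes held 45, 10, 8 and 9 *Oasl2* UMIs with DMXAA and 1, 1, 0 and 0 with vehicle. Choroid plexus epithelium, which secretes cerebrospinal fluid, held 16, 5 and 6 against none in 3 libraries of each group, at least 6.99-fold higher, or 3.42-fold without replicate 1. In ependymal cells *Oasl2* had 19 UMIs against 2 (ratio 9.45, interval 2.28 to 83.7), in mural cells 8 against 2 (5.95, 1.19 to 57.5) and in Cajal-Retzius cells 17 against 1 with overlap (11.6, 1.82 to 484). The Cajal-Retzius ratio was 3.43 without replicate 1, and that of mature oligodendrocytes fell from 32.6 to 15.9.

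Excitatory neurons held low levels but many counts. *Oasl2* had 520, 128, 86 and 76 UMIs in WT DMXAA libraries (23.1, 5.7, 2.5 and 4.0 CPM) and 4, 7, 0 and 2 in WT vehicle libraries, a log2 fold change of 6.04 ± 0.74. Its mean was 8.82 CPM with WT DMXAA replicate 1 and 4.07 CPM without it. *Oas2* had 51, 39, 44 and 32 UMIs against 9, 26, 6 and 17 (1.65 ± 0.35). *Oas1c* had 47, 32, 12 and 17 UMIs against 19, 9, 15 and 11, with overlap (1.14 ± 0.48). Of these 3 members tested, *Oasl2* was called, and 0.12% of the 17438 genes tested were called higher. *Oas2*, without overlap, was not called, but it was called by DESeq2 and without WT vehicle replicate 2.

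The regions differed in level. In CA1 neurons *Oasl2* had 237, 70, 37 and 38 UMIs with DMXAA and none with vehicle, at least 109-fold higher, and a mean of 21.8 CPM (at least 52.3-fold and 9.79 CPM without replicate 1). CA3 neurons had 36, 5, 6 and 2 UMIs against 0, 0, 0 and 1, a mean of 9.80 CPM that was 2.94 CPM without replicate 1. Dentate granule cells, the most numerous neurons here, were at 2.65, 1.14, 0.996 and 0.689 CPM against 0.296, 0.523, 0 and 0.126 CPM, a ratio of 4.74 (interval 2.29 to 11). In each of the WT DMXAA libraries *Oasl2* was thus lower in dentate granule cells than in CA1 neurons, where the 4 libraries stood at 57.7, 13.1, 5.80 and 10.4 CPM. In inhibitory neurons *Oasl2* had 18, 14, 4 and 2 UMIs against 0, 2, 1 and 3, and the groups overlapped.

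**Figure D3:**
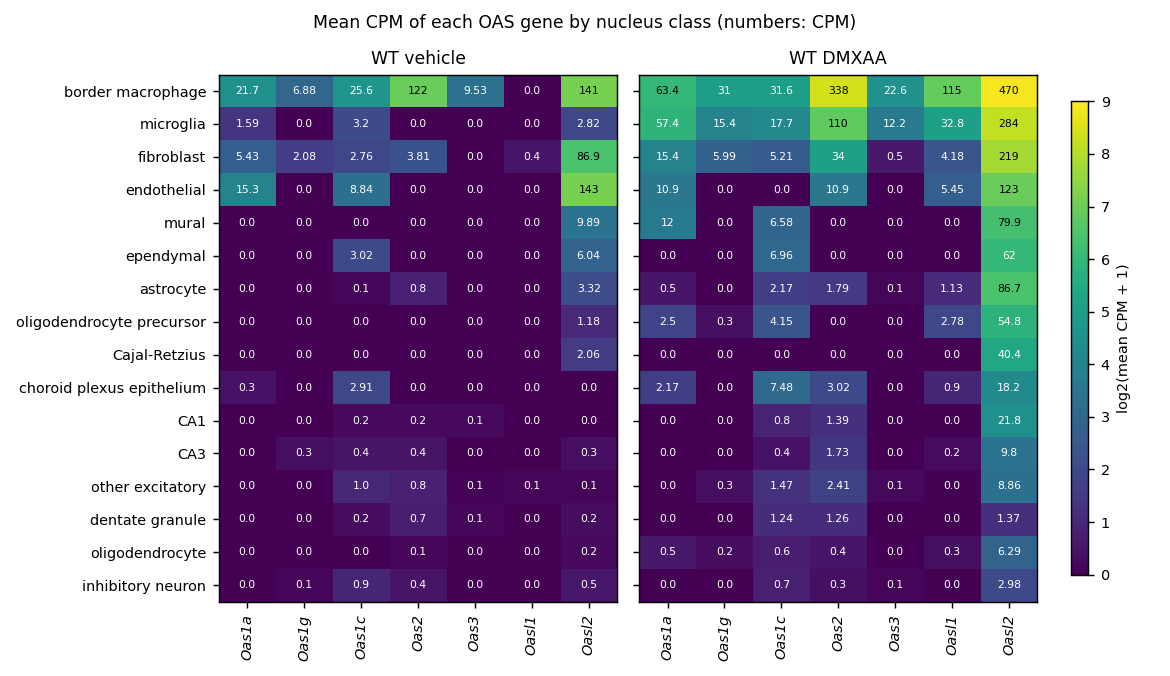
Mean CPM of each OAS gene (columns) in each nucleus class (rows) for WT vehicle and WT DMXAA, with the colour giving log2(mean CPM + 1) and the number giving CPM. *Oasl2* fills nearly all classes with DMXAA, whereas *Oas2* and *Oasl1* are concentrated in border macrophages, microglia and, for *Oas2*, fibroblasts.

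The share of each member in the family UMIs differed between classes. These are shares of 3′ tag counts that were not divided by gene length, so they are compared for 1 gene between classes and not between genes. *Oasl2* made up 93.8% of family UMIs in WT DMXAA astrocytes (91.4% to 94.2% over the 4 libraries) and 53.3% in microglia (40.1% to 56.5%), ranges that do not overlap. *Oas2* made up 21.1% in microglia (16.7% to 32.0% over the libraries), 31.0% in border macrophages (26.7% to 42.1%) and 2.06% in astrocytes (1.11% to 8.62%). In oligodendrocyte precursors it gave 0 of 231 family UMIs. *Oas1a* made up 10.9% in microglia (8.27% to 14.97%), 5.44% in fibroblasts (5.06% to 6.19%) and 0.515% in astrocytes (4 UMIs, and 0.308% without WT DMXAA replicate 1). *Oasl1* was at 10.7% in border macrophages and 6.16% in microglia, and at 0.272% in excitatory neurons, where it had 3 UMIs, all from WT DMXAA replicate 1.

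*Oas1c*, which lacks synthetase activity, was highest as a level in the same classes as the family, at 31.6 ± 14.4 CPM in border macrophages (SD, n = 3) and 17.7 ± 12.1 CPM in microglia (n = 4), against 1.24 ± 0.78 CPM in dentate granule cells. Its share ran another way, beside an *Oasl2* level of 1.37 CPM in those neurons. It made up 31.6% of the 133 family UMIs of dentate granule cells (21.1% to 38.5% over the 4 libraries) and 9.78% in excitatory neurons, against 3.34% in microglia and 2.32% in astrocytes. In choroid plexus epithelium it made up 31.4% of 51 family UMIs, from 12% to 60% over 3 libraries, and 13 of 26 without replicate 1. In dentate granule cells it had 15, 15, 8 and 4 UMIs with DMXAA and 1, 2, 3 and 1 with vehicle, without overlap. *Oas2* had there 9, 13, 12 and 10 UMIs against 2, 11, 3 and 9, with overlap.

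**Figure D4:**
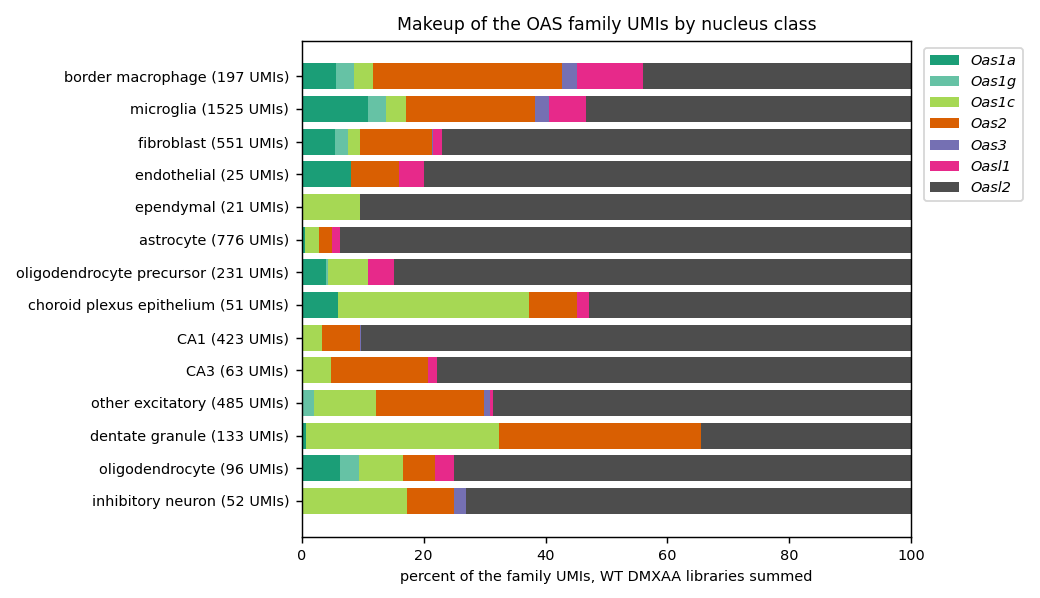
Percent of the summed family UMIs given by each member (coloured segments) in the WT DMXAA libraries, 1 bar per class with at least 20 family UMIs. *Oasl2* takes 93.8% in astrocytes and 53.3% in microglia, and *Oas1c* takes 31.6% in dentate granule cells.

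Summed over all nuclei, the 4 WT vehicle libraries held 145, 175, 131 and 124 family UMIs and the WT DMXAA libraries 2770, 906, 626 and 766, a ratio of 8.57 (interval 7.86 to 9.35), or 5.05 without WT DMXAA replicate 1. *Oasl2* rose from 78, 96, 72 and 63 to 2074, 622, 366 and 490 UMIs (log2 fold change 3.58 ± 0.46), and *Oas2* from 22, 40, 17 and 33 to 294, 118, 146 and 141 (2.69 ± 0.34). *Oas1a* (3.41 ± 0.51) and *Oasl1* (4.91 ± 0.77) were called as well, and *Oas1c* (1.48 ± 0.40) was not. Without WT DMXAA replicate 3, *Oas1c* was called at 1.73 ± 0.34, and without WT vehicle replicate 1, 2 or 4 the *Oasl1* difference of 4.81 to 4.82 was not. With only the 8 libraries of the contrast, *Oasl2* (3.57 ± 0.55) and *Oasl1* (4.92 ± 0.83) were not called, and *Oas1a* and *Oas2* were. Of the 7 members 5 were tested and 4 called, beside 0.447% of 20125 genes called higher. *Oas1g* and *Oas3* did not pass the filter on low counts. Over all 10 units the members gave 10 calls in WT, beside 0.253% of the 115275 gene tests of those units. Nothing is read from these calls, by class or together, since this contrast chose the members. The units also share UMIs, because all nuclei include those of the classes. Without WT DMXAA replicate 1 the means over all nuclei were 12.9 CPM for *Oasl2*, against 23.9 CPM with it, and 0.499 CPM for *Oasl1*, against 1.07 CPM.

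In Ifnar1-/- mice, which lack the receptor, no member was called between DMXAA and vehicle. This contrast had no part in choosing the family and was tested by edgeR's quasi-likelihood test with Benjamini-Hochberg adjustment over all genes. Over all nuclei the KO vehicle libraries held 41, 28, 40 and 33 family UMIs and the KO DMXAA libraries 27, 46, 37 and 46. The groups overlapped, and the ratio was 1.12 (interval 0.884 to 1.41). *Oasl2* had 20, 19, 16 and 19 UMIs with vehicle and 11, 27, 22 and 22 with DMXAA, a log2 fold change of 0.09 ± 0.57 (adjusted p = 0.97 by edgeR). *Oas2* had 3, 2, 10 and 7 UMIs against 4, 6, 6 and 8, with 0.11 ± 0.52 (adjusted p = 0.96 by edgeR), and *Oas1c* differed by -0.11 ± 0.50 (adjusted p = 0.96 by edgeR).

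In KO microglia 1 family UMI, of *Oas1c*, was counted in 963 vehicle nuclei and 1 in 1069 DMXAA nuclei. *Oas1a*, *Oas2* and *Oasl2* had none in either group, where up to 3 UMIs over a group are compatible with a count of 0, so no fold is given. Border macrophages of KO mice held 0 and 2 family UMIs. *Oasl2* remained countable in KO fibroblasts, with 45 UMIs with vehicle and 58 with DMXAA over the 4 libraries, a log2 fold change of 0.51 ± 0.54 (adjusted p = 0.92 by edgeR). In KO excitatory neurons *Oas2* differed by -0.10 ± 0.56 (adjusted p = 0.96 by edgeR) and *Oas1c* by -0.20 ± 0.66 (adjusted p = 0.94 by edgeR). Family sums of single classes went both ways in KO. Excitatory neurons outside the named regions held 28 UMIs with DMXAA and 15 with vehicle, with overlap (ratio 1.99, interval 1.03 to 4.0). Choroid plexus epithelium held 2 against 8 without overlap (0.431, 0.0446 to 2.16), and endothelial cells 0 against 7 with overlap.

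No gene at all was called in KO over all nuclei or in microglia by edgeR (0.0% of 20125 and 0.0% of 8920), DESeq2 or limma-trend. Of the 14 member tests over all units, 4 had no UMI in either KO group (*Oas1a*, *Oas2* and *Oasl2* in microglia and *Oasl2* in oligodendrocyte precursors) and passed the filter through the WT libraries, so they could not have been called. A further 4 rested on 1 to 5 UMIs over both KO groups. The remaining 6, over all nuclei, in excitatory neurons and in fibroblasts, rested on 31 to 156 UMIs, and 0 of them had an unadjusted p under 0.05. Of all genes tested in KO, 1118 of 20125, 998 of 17438 and 460 of 8955 in these units had an unadjusted p under 0.05. Beside such shares nothing is read from 0 of 6. The filter used all 16 libraries, so these 6 may also owe their test to WT counts. A lack of calls at such counts does not show a lack of effect. The difference of the DMXAA effect between genotypes contains the WT contrast and is given as a description. Over all nuclei it was 3.49 ± 0.72 on the log2 scale for *Oasl2* and 2.59 ± 0.63 for *Oas2*. edgeR called 0 members for this difference, beside 0.0497% of all genes over all nuclei and 0.123% in microglia, whereas DESeq2 gave 2 member calls over all nuclei, beside 0.569% of genes, and limma-trend gave 3 in microglia, beside 0.437%, and 1 in excitatory neurons, beside 0.0459%. Nothing is read from these counts, since the members were chosen on the WT part of the difference. In microglia the KO groups had no counts of the 3 members tested, so edgeR's fit of the difference could not give a usable SE there.

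Without any DMXAA, the family was lower in KO than in WT over all nuclei. This comparison of the vehicle libraries did not enter the choice of the members, but it shares its WT vehicle libraries with the description above, and genotype cannot be told apart from age. Over all nuclei KO vehicle libraries held 142 family UMIs and WT vehicle libraries 575, a ratio of 0.256 (interval 0.211 to 0.308), without overlap. Not each class ran that way. Mural cells held 8 family UMIs in KO and 2 in WT (ratio 2.03, interval 0.404 to 19.6), all of them *Oasl2*, and the groups overlapped in choroid plexus epithelium (0.777, 0.246 to 2.52) and CA1 neurons (0.618, 0.185 to 1.88). In inhibitory neurons *Oasl2* had 7 UMIs in KO and 6 in WT (1.44, 0.414 to 5.18), also with overlap. *Oasl2* was at 0.618, 0.556, 0.373 and 0.488 CPM in KO and at 1.99, 2.48, 2.00 and 1.58 CPM in WT (log2 fold change -1.66 ± 0.51, adjusted p = 0.015 by edgeR). *Oas2* had 3, 2, 10 and 7 UMIs against 22, 40, 17 and 33 (-1.97 ± 0.43, adjusted p = 0.0025 by edgeR). *Oas1a* had no UMI in KO vehicle libraries against 7, 6, 8 and 2, at least 7.40-fold lower (adjusted p = 0.0066 by edgeR). *Oas1c* (-0.83 ± 0.46, adjusted p = 0.14 by edgeR) and *Oasl1*, with 0 UMIs against 5 (adjusted p = 0.18 by edgeR), were not called, although *Oasl1* was without WT DMXAA replicate 1 (adjusted p = 0.038 by edgeR). The *Oasl1* test rested on those 5 UMIs and passed the filter through the WT DMXAA libraries, so nothing is read from it. With only the 8 vehicle libraries, *Oas1a* did not pass the filter on low counts, so its test depended on adding the DMXAA libraries, whereas *Oasl2* and *Oas2* were called there too. All 3 were called when every gene with at least 1 count was tested. The 3 calls, of which that of *Oas1a* came with this limit, stand beside 26.3% of all genes called lower.

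By class, *Oasl2* in fibroblasts went with 45 UMIs in KO and 180 in WT (-2.31 ± 0.47, adjusted p = 0.0045 by edgeR), beside 8.26% of genes called lower. In astrocytes *Oasl2* had 1 UMI in KO against 33 (-4.70 ± 1.63, adjusted p = 0.039 by edgeR), beside 16.7% of genes. *Oas2* in excitatory neurons had 16 UMIs against 58 (-1.26 ± 0.46, adjusted p = 0.034 by edgeR), beside 25.6% of genes. The astrocyte call was lost without WT vehicle replicate 1, 2 or 4 or any 1 of the KO vehicle libraries (adjusted p = 0.067 to 0.085 by edgeR). That of *Oas2* in excitatory neurons was lost without WT vehicle replicate 2 or 4 or KO vehicle replicate 1, 2 or 4 (adjusted p = 0.067 to 0.137 by edgeR). Both calls were also lost at a limit of 1% mitochondrial UMIs (adjusted p = 0.081 for *Oasl2* in astrocytes and 0.053 for *Oas2* in excitatory neurons, by edgeR), and with only the 8 vehicle libraries neither gene passed the filter, so their tests depended on adding the DMXAA libraries. Both were called when every gene with at least 1 count was tested. The call of *Oasl2* in fibroblasts was made there as well. In border macrophages KO vehicle held no family UMI, at least 10.3-fold lower than WT vehicle, where 2 and 4 libraries could be compared. Microglia had too few OAS UMIs without treatment for a call, with 1 in KO and 19 in WT, and 6.29% of the genes tested there were called lower.

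Among the other genes around the 2′-5′ oligoadenylates, *Pde12*, whose product degrades them, differed by -0.06 ± 0.15 (log2) over all nuclei between WT DMXAA and WT vehicle. *Abce1*, which encodes a ribosome recycling factor, differed by 0.04 ± 0.08 over all nuclei and by 0.02 ± 0.20 in microglia. Of 6 genes of this list, with 4 further *Oas1* copies, 2 were tested over all nuclei and 0 called. In KO vehicle libraries *Abce1* was lower than in WT vehicle libraries (-0.32 ± 0.08, adjusted p = 0.0040 by edgeR).

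Of the other sensors and editors of double-stranded RNA, some were higher with DMXAA in WT. Over all nuclei 5 of the 9 were called, beside 0.447% of all genes, with a list median of 1.17 against 0.01 over all genes. The gene lists were chosen with earlier results of these data known. List counts and medians of the WT contrast are therefore a description, here and for the other lists. *Eif2ak2*, which encodes the kinase PKR, differed by 1.88 ± 0.21, *Ddx58* (RIG-I) by 1.36 ± 0.22, *Ifih1* (MDA5) by 1.44 ± 0.24, *Dhx58* (LGP2) by 1.17 ± 0.22 and *Zbp1*, a sensor of Z-form nucleic acid, by 3.17 ± 0.60. In microglia 4 of 7 tested were called, beside 1.24% of all genes. These were *Eif2ak2* (1.73 ± 0.20), *Ddx58* (1.98 ± 0.28), *Ifih1* (2.00 ± 0.31) and *Adar* (1.14 ± 0.22), which encodes an RNA editing enzyme. None was called with DMXAA in KO by edgeR. In KO vehicle against WT vehicle, *Adar* was higher over all nuclei (0.58 ± 0.20, adjusted p = 0.026 by edgeR) and *Eif2ak2* lower in microglia (-0.88 ± 0.23, adjusted p = 0.021 by edgeR).

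Of the interferon receptor and its transcription factors, 3 of 9 were called with DMXAA in WT, both over all nuclei and in microglia, beside 0.447% and 1.24% of all genes. These were *Stat2* (0.95 ± 0.19 over all nuclei and 2.54 ± 0.35 in microglia), *Irf9* (1.52 ± 0.19 and 1.23 ± 0.30) and *Irf7* (3.97 ± 0.47 and 5.45 ± 0.88). *Stat2* and *Irf9* encode transcription factor subunits that act downstream of the receptor, and *Irf7* encodes a factor that amplifies interferon production. The list median was 0.23 over all nuclei and 0.36 in microglia, against 0.01 and 0.02 over all genes. KO vehicle libraries had lower *Ifnar1* (-0.35 ± 0.07, adjusted p = 0.0012 by edgeR) and *Tyk2* (-0.19 ± 0.07, adjusted p = 0.044 by edgeR) and higher *Jak1* (0.45 ± 0.12, adjusted p = 0.0065 by edgeR) over all nuclei, and lower *Irf9* (-1.41 ± 0.38, adjusted p = 0.024 by edgeR) in microglia.

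cGAS is a structural relative of the OAS enzymes that senses DNA and acts through STING, the kinase TBK1 and the factor IRF3. Of *Cgas*, *Sting1*, *Tbk1*, *Irf3* and the related *Mb21d2*, 0 of 5 were called with DMXAA in either genotype by edgeR. In KO vehicle against WT vehicle, *Sting1* (-0.85 ± 0.28, adjusted p = 0.022 by edgeR), *Tbk1* (-0.23 ± 0.06, adjusted p = 0.0078 by edgeR) and *Irf3* (-1.29 ± 0.31, adjusted p = 0.0045 by edgeR) were lower over all nuclei and *Mb21d2* was higher (0.91 ± 0.20, adjusted p = 0.0024 by edgeR). In this contrast 26.3% of all genes were called lower and 22.0% higher over all nuclei, which also holds for the genotype calls over all nuclei of the lists above. In microglia *Irf3* was lower (-1.32 ± 0.39, adjusted p = 0.035 by edgeR), beside 6.29% of genes called lower there. The same share stands beside the microglia calls of *Eif2ak2* and *Irf9* above.

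Across 11 classes of the WT DMXAA libraries, the genes whose level followed the family sum most closely, among 15558 ranked by Pearson correlation of log2(CPM + 5), were *Parp14* (r = 0.972), *Parp9* (0.965), *Shisa5* (0.961), *Gbp7* (0.956) and *A930037H05Rik* (0.955). The classes share libraries and depth, so these values describe an order of likeness and carry no test.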

How the data were processed

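Single-nucleus RNA-seq (10x Genomics 3′, v3.1) matrices deposited by the authors held raw UMI counts per gene and barcode for 16 libraries, without normalization. Matrix headers name Cell Ranger 6.1.2 and the submitters' processing notes Cell Ranger 3.1.0, Seurat 3.0 and mm10. Reads on unspliced RNA were counted, so the counts include introns. Nuclei with 200 to 4000 genes and at most 5% mitochondrial UMIs were kept, and called doublets (6.3% to 9.96% of a library) were removed. Leiden clustering (leidenalg 0.10.2, resolution 0.5) left out 165 interferon-related genes, and the 35 clusters were named from markers. Names are therefore rebuilt (microglia stands for microglia-like nuclei), and class values may differ from the study's for that reason. 

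UMIs were summed per library and class with at least 20 nuclei. All 16 libraries entered 1 edgeR 4.0.16 fit of 4 groups, with TMM scaling, filterByExpr and two-sided quasi-likelihood tests, and p-values were adjusted over all genes tested in a class. A call needed an adjusted p below 0.05 with a log2 fold change of over 0.1 in size. P-values measure the spread between libraries of a group. CPM values were computed from a gene's UMIs and all UMIs of the class in that library. Ratios are of summed counts, with exact 95% intervals. Members, gene lists and tests were chosen with earlier results of these data known. All members were named, the list genes called in microglia or over all nuclei, and the 5 genes most like the family. Some genes of the lists are not reported here, and the list counts and medians leave them out. In simulated microglia counts 93.8% of 97 genes changed by 2 log2 units were recovered, and 39.0% of 100 changed by 1, with 2.26% of calls false. Over all nuclei 93.8% of 97 and 57.1% of 98 were recovered, with 9.26% of calls false, above the 5% that the adjustment aims at.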

Additional observations from a re-analysis of the deposited data

Results flagged for a closer look

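Chance takes about 1 in 20 independent groups of 4 libraries beyond Dixon's 95% limit, but the groups examined here shared libraries and UMIs. The count is therefore a description. Among 40 groups examined, 5 held a library beyond that limit, each time WT DMXAA replicate 1. These were *Oas1a* in fibroblasts at 31.6 CPM (median of the 4 libraries 11.2), *Oas3* in microglia at 39.3 CPM (4.84), *Oasl1* in microglia at 89.8 CPM (16.2), *Oasl1* over all nuclei at 2.80 CPM (0.554) and *Oasl2* in excitatory neurons at 23.1 CPM (4.85). The same library was highest for the family sum in 10 of 10 fitted units, and without it the means were 9.98 CPM for *Oas1a* in fibroblasts, 3.23 CPM for *Oas3* and 13.9 CPM for *Oasl1* in microglia, 0.499 CPM for *Oasl1* over all nuclei and 4.07 CPM for *Oasl2* in excitatory neurons.

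Nuclei left without a class name entered the sums over all nuclei, where they gave 345 of the 5068 family UMIs of WT DMXAA libraries, but no comparison of classes. Their family sum was 26.1 CPM in WT DMXAA libraries and 2.41 CPM in WT vehicle libraries, the control for this signal.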

How the results depend on the processing

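The 10 member calls of DMXAA against vehicle in WT became 19 when every gene with at least 1 count was tested and 5 when only the 8 libraries of the contrast were fitted, and ranged from 8 to 14 on leaving out 1 library. For the difference of the DMXAA effect between genotypes the 0 calls of edgeR became 2 with DESeq2 and 4 with limma-trend, and 0 to 1 on leaving out 1 library. The 6 calls of KO vehicle against WT vehicle became 3 with the 8 libraries alone and 9 when every gene with at least 1 count was tested, and ranged from 4 to 8 on leaving out 1. The cause was not tested in these cases. The share of all genes called in each of these runs is not set beside the counts. They therefore do not show a change particular to the family. In KO, DMXAA against vehicle gave 0 member calls under each alternative run, 8 of the 14 tests resting on at most 5 UMIs over both KO groups, although 166, 353 and 272 calls of other genes over the 10 units were made with every gene tested, with the 8 libraries alone and without WT DMXAA replicate 3. Of the fold changes of single members and the shares of nuclei under an alternative, 610 kept their direction and side of the threshold or moved by less than the spread between libraries, 26 were no longer called, 6 became called and 3 shares without thinning moved by more than that spread. These counts leave out the calls gained for the difference of the DMXAA effect between genotypes. They also leave out calls lost because a gene did not pass the filter in a run. Thinning to 500 UMIs gave a microglial share of 20.8%. No paired analysis was possible because the replicate numbers follow accession order and pair no libraries. In most classes the counts of *Oas1g*, *Oas3* and *Oasl1* were too few for a test, so a difference in these was not detectable at this depth.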
